A study of Homo sapiens with 14 samples.

Results

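In BEAS-2B cells, 2096 distal KLF4 binding peaks were listed in WT cells treated with arsenic (As3+) and again in untreated Nrf2 KO cells, while the untreated WT cells had no peak there. BEAS-2B is an immortalised line of human bronchial epithelial cells. The sites were chosen by 3 measured peak lists on chromosomes 1 to 22 and X: each was a WT As3+ interval whose summit lay more than 10 kb from every annotated gene start and outside every exon, which shared at least 1 bp with a Nrf2 KO control interval, and which overlapped no WT control interval. They made up 2096 of 7483 distal WT As3+ peaks (percent called, 28.0%) and stood among 29866 WT As3+ peaks in all, of which 54.2% met the same overlap rule at any distance. Because the overlaps selected the sites, those 2 shares, the peak heights in both libraries and the distances between their summits are given as description and were not tested.

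The study immunoprecipitated KLF4 and sequenced the bound DNA (ChIP-seq) from 4 conditions with 1 library each: WT control, WT treated with 1 µM As3+ for 6 h, Nrf2 KO control, and Nrf2 KO treated with the same dose for the same time. The sample labels name 1 input for KLF4, from BEAS-2B cells without a knockout or As3+ label. Whether all 4 peak lists were called against it is not stated in the study's methods. A background below is a value behind a listed peak, and not an input measured in each condition. The Nrf2 KO cells were made with CRISPR-Cas9 and 2 guides to exon 2 of the Nrf2 gene, and the WT cells were colonies from the same procedure that still made Nrf2 protein. Which colony supplied the chromatin is not given in the sources used here, so differences between colonies and effects of the deletion cannot be told apart. With no replicate in any condition, no difference between conditions was tested, and every interval below is an exact (Clopper-Pearson) 95% interval that covers counting error only and treats neighbouring sites as independent. The 4 lists differed greatly in length, with 751 WT control, 29866 WT As3+, 76521 Nrf2 KO control and 130 Nrf2 KO As3+ peaks. Their median peaks held 25, 10, 7 and 19 fragments over the summit. Absence from the WT control list therefore means absence from a short list of tall peaks, and reads at sites that a library did not list were not analysed here.

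KLF4 is a zinc-finger transcription factor of epithelia that binds CACCC-type and GC-rich DNA, at promoters and at distal enhancers. Nrf2 is the transcription factor that arsenic and other electrophiles release from KEAP1, after which it pairs with small MAF proteins on antioxidant response elements of detoxification genes. Distal enhancers of epithelial cells are often held open by AP-1, a dimer of FOS and JUN family proteins. CpG islands, stretches rich in unmethylated CpG, mark most promoters and also many start sites inside genes.

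The windows that carry the results are shown first, as 200 bases centred on the WT As3+ summit of hg38 (GRCh38), forward strand. The EDN2 upstream site (chr1:41496369-41496568) was the tallest by WT As3+ p value and held an AP-1 word. The CYRIA downstream site (chr2:16508131-16508330) was the tallest in Nrf2 KO control and held none of the words marked here. The PLXND1 site (chr3:129561223-129561422) and the RARG site (chr12:53221062-53221261) were the tallest with a KLF word and with a GC box. At the LRRC8A site (chr9:128892504-128892703), the tallest with both, a KLF word stood beside an AP-1 word. The WNT7B downstream site (chr22:45903619-45903818) was among the 5 tallest in Nrf2 KO control and held an AP-1 word, a GC box and an Nrf2 word. The GCLC site (chr6:53548164-53548363), the BACH1 site (chr21:29298882-29299081) and the repeat-rich window on chromosome 16 (chr16:46394401-46394600) were picked after their values were seen, the first pair for their Nrf2 words and the last for its composition. Capitals mark the KLF word (CCACACCC or CCACGCCC), the AP-1 word (TGACTCA), the GC box (CCCCGCCCC) and the Nrf2 word (TGACNNNGC), each searched on both strands, except in the last line, where they mark ATTCC or its complement.
EDN2 upstream site: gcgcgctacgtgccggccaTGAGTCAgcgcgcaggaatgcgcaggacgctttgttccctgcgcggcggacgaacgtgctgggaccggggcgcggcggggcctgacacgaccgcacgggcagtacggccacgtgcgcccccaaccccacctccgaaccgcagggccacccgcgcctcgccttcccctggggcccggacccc
CYRIA downstream site: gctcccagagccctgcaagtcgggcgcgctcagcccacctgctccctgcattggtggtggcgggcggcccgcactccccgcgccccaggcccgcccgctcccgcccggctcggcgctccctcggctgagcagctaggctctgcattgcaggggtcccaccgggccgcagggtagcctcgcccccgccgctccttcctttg
PLXND1 site: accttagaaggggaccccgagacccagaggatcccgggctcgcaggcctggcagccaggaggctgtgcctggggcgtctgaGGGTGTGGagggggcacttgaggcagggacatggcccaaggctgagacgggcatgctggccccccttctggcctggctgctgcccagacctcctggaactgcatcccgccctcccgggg
RARG site: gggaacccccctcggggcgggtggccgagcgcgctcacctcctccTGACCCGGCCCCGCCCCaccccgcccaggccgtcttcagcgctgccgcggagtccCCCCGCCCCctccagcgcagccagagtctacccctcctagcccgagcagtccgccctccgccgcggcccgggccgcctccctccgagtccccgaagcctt
LRRC8A site: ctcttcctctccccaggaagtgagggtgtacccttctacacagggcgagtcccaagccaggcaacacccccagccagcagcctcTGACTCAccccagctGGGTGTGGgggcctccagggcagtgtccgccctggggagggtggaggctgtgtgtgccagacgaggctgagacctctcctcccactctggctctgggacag
WNT7B downstream site: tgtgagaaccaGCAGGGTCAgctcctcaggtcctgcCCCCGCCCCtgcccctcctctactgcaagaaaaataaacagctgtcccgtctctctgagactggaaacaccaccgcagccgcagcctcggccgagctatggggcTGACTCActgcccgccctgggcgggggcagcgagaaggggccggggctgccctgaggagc
GCLC site: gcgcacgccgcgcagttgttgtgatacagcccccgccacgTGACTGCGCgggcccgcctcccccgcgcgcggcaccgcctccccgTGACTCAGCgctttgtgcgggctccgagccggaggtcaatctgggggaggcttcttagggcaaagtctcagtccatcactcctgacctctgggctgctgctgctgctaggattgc
BACH1 site: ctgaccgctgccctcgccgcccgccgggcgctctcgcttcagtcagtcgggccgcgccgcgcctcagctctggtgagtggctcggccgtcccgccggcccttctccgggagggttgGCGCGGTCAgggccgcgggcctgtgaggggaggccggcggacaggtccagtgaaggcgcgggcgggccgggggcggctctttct
Chromosome 16 repeat site: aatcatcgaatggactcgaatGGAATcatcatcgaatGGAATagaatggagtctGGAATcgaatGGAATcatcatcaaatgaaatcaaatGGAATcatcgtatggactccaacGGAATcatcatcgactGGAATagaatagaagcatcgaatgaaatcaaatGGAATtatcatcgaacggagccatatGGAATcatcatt
In the GCLC line, the last capitals are an AP-1 word that runs on into the Nrf2 word. Such a joined word was found in 25 of the 2096 windows.

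The tallest shared site lay 11786 bp upstream of EDN2, which encodes the peptide endothelin 2. It held 50 fragments over the summit in WT As3+ and 24 in Nrf2 KO control, against backgrounds of 1.93 and 1.30 fragments, and the 2 summits were 123 bp apart. Inside TWIST2, a repressor of the TWIST family linked to mesenchymal states, the second site held 53 and 24 fragments. The third, in an intergenic stretch 158100 bp from the start of CYRIA, a RAC1-binding regulator of actin, was alone among the first 10 in holding fewer fragments in WT As3+ than in Nrf2 KO control, with 31 against 33. It was also the site with the largest −log10 p in Nrf2 KO control, and its fold enrichment was 18.2 in WT As3+ and 22.7 in Nrf2 KO control.

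The other sites of these 10 lay near or inside genes of varied roles. Of the 10, 4 lay within 2 kb of an annotated transcript start: those in KLC1 (209 bp), PLXND1 (267 bp), RARG (749 bp) and CUEDC1 (1932 bp). Upstream of PDGFA, which encodes a platelet-derived growth factor chain, a site 18170 bp from the gene start held 31 fragments in WT As3+ and 13 in Nrf2 KO control. Within PLXND1, a semaphorin receptor, the counts were 34 and 13. Within RARG, a retinoic acid receptor, they were 32 and 13, and within the kinesin light chain gene KLC1 they were 31 and 17. A site in CUEDC1 held 41 and 22 fragments, one in the zinc-finger gene TRERF1 held 33 and 15, and one 35781 bp upstream of HHAT, the enzyme that adds palmitate to hedgehog proteins, held 32 and 15. The WT As3+ count was higher at 9 of these 10 sites, which the WT As3+ value had chosen. Counts are not scaled between the libraries. Ranked by Nrf2 KO control instead, the next sites were more even: 19 fragments in WT As3+ and 29 in Nrf2 KO control 43196 bp from the keratin gene KRT80, 25 and 26 in an AT-rich window (25% GC) 271005 bp from RSL24D1, 22 and 21 inside EGLN3, a prolyl hydroxylase that acts on hypoxia-inducible factor, and 19 and 21 at the site 73443 bp from WNT7B. At the KRT80 site the 2 summits were 1502 bp apart, so its counts belong to different places. The 43196 bp were measured from the WT As3+ summit.

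**Figure D1:**
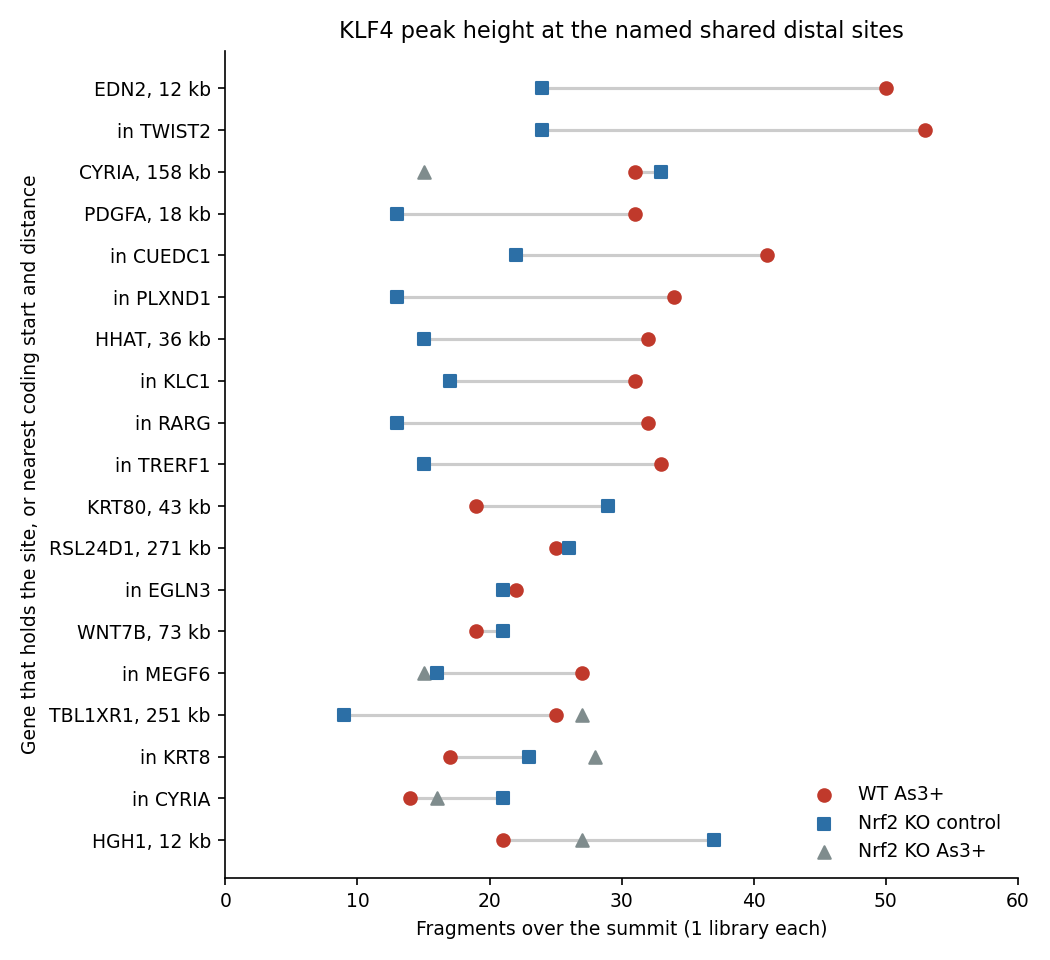
Fragments over the summit at the 19 sites named by rank or by a Nrf2 KO As3+ peak, 1 library per condition: circles are WT As3+, squares Nrf2 KO control and triangles Nrf2 KO As3+ where that library listed a peak. The first 10 rows run from 31 to 53 fragments in WT As3+ and from 13 to 33 in Nrf2 KO control.

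Across all 2096 sites the peaks were low. The median site held 11 fragments over the summit in WT As3+ (range 5 to 99) and 9 in Nrf2 KO control (range 4 to 73), on median backgrounds of 1.35 and 0.874 fragments. Fold enrichment was 4.79 in WT As3+ (range 2.05 to 18.2) and 5.10 in Nrf2 KO control (range 2.43 to 22.7) at the median. More fragments were counted in WT As3+ at 1398 sites (66.7%), yet fold enrichment was higher in WT As3+ at only 892 (42.6%). The direction of the difference thus turned with the measure. Background was higher in WT As3+ as well, with quartiles of 1.001 and 1.925 fragments against 0.644 and 1.248 in Nrf2 KO control. Raw counts of the 2 libraries are therefore not on 1 scale, and a higher WT As3+ count does not by itself show more binding. A −log10 q of at least 5 was reached by 735 sites (35.1%) in WT As3+, by 811 (38.7%) in Nrf2 KO control and by 382 (18.2%) in both. Over the 2096 sites, which share their 2 libraries, Spearman's rho between the conditions was 0.586 for fragments and 0.214 for fold enrichment.

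**Figure D2:**
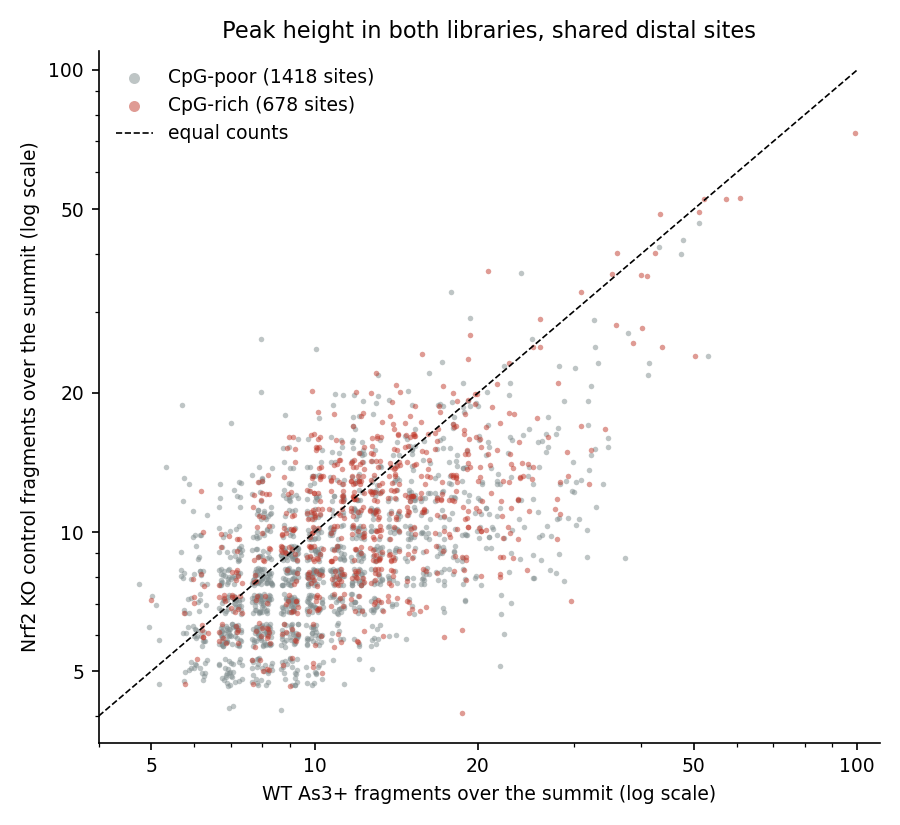
Fragments over the summit at each of the 2096 shared distal sites, WT As3+ on the x axis and Nrf2 KO control on the y axis, both on log scales and shifted slightly at random so that equal counts can be seen. Red points are the 678 CpG-rich windows and grey points the other 1418, and 1398 sites lie below the line of equal counts. Counts are not scaled between the libraries.

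Sites with a peak in only 1 of the 2 conditions were lower still. The 5132 distal WT As3+ peaks without a Nrf2 KO control or WT control peak had a median of 8 fragments and a width of 224 bp, where the shared sites had 11 fragments and 320 bp. The 24066 distal Nrf2 KO control peaks without a WT As3+ or WT control peak had a median of 6 fragments and 232 bp, where the shared sites had 9 and 371 bp. Among the 7228 distal WT As3+ peaks without a WT control peak, the share that also had a Nrf2 KO control peak went from 22.9% (interval 21.8 to 24.0%) at a −log10 q under 5 to 52.3% between 5 and 10 and 76.7% between 10 and 15, and it was 5 of 5 at 30 or more. In the other direction the share of distal Nrf2 KO control peaks with a WT As3+ peak went from 6.10% at a −log10 q under 5 to 20.6%, 65.3% and 82.8% in the next bins. These shares leave out distal peaks with a WT control peak, and within these limits taller peaks were more often listed in the other library.

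The choice of overlapping intervals, of median width 320 bp in WT As3+ and 371 bp in Nrf2 KO control, holds the summits of the 2 libraries near each other. Their median distance was 110 bp, and 541 sites (25.8%) had summits within 50 bp, 964 (46.0%) within 100 bp and 1537 (73.3%) within 200 bp. At 1544 sites (73.7%) the WT As3+ summit lay inside the Nrf2 KO control interval. At least 50% of the shorter interval was shared at 1729 sites (82.5%). The loosest matches shared 1 bp 48181 bp upstream of LHX5, a homeobox gene, with summits 437 bp apart, and 2 bp 25317 bp from PPP2R2D, a phosphatase subunit, with summits 470 bp apart.

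**Figure D3:**
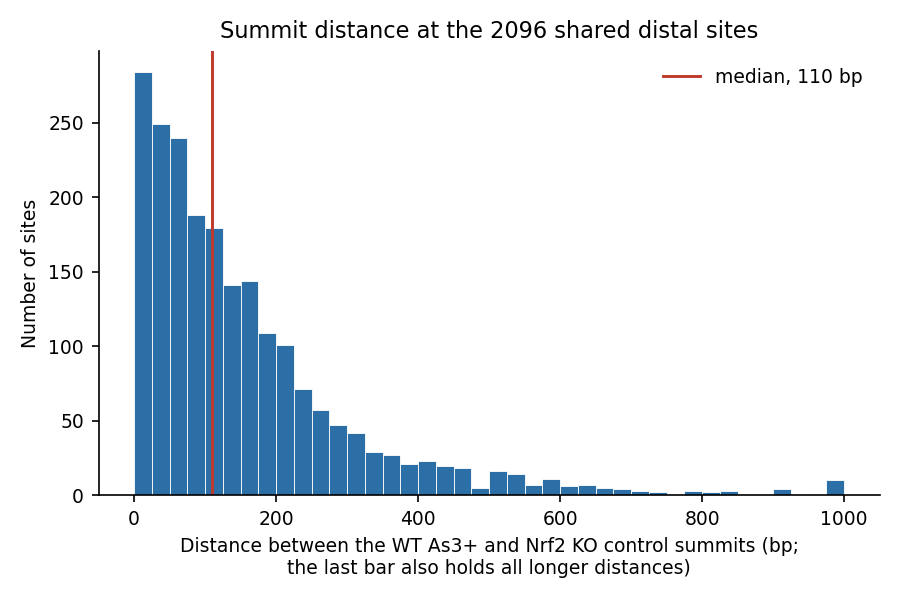
Distance in bp between the WT As3+ and the nearest Nrf2 KO control summit at the 2096 shared distal sites, in bars of 25 bp, with the last bar holding all longer distances. The line marks the median of 110 bp, and 1537 sites lie within 200 bp.

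At the 10 kb limit, the members just inside were 10005 bp from a gene start in NDRG4 (7 fragments in WT As3+, 8 in Nrf2 KO control) and 10027 bp from the pseudogene C3P1 (15 and 18). Just outside the limit were an interval in RASA3 at 9992 bp (8 and 6 fragments) and one in CLEC16A at 9985 bp (7 and 7). The WT As3+ counts of the 2 pairs overlapped, while both Nrf2 KO control counts were higher just inside the limit than just outside it. With 2 sites on each side, no difference at the limit was tested or is read from these counts. The limit was measured from the outermost start of each gene. When the start of every annotated transcript was used, 526 of the 2096 sites (25.1%, interval 23.25 to 27.01%) lay within 2 kb of one, and 346 within 500 bp. The label "distal" therefore holds for gene starts and not for all transcript starts. Of the distal WT As3+ peaks without a Nrf2 KO control peak 9.66% (8.87 to 10.5%) lay that near a transcript start, and of the Nrf2 KO control peaks without a WT As3+ peak 10.4% (9.97 to 10.7%).

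The windows under the shared sites were rich in GC and CpG. Their median GC content was 64.0%, against 54.5% in the WT As3+ group without a Nrf2 KO control peak and 57.5% in the Nrf2 KO control group without a WT As3+ peak. A CpG observed-to-expected ratio of at least 0.6, a usual mark of CpG islands, was found in 678 shared sites (32.4%, interval 30.3 to 34.4%). It was found in 10.02% (9.21 to 10.9%) of the first group, in 13.6% (13.1 to 14.0%) of the second, and in 79.6% of the 11096 shared sites within 2 kb of a gene start. Of the 678 CpG-rich sites 301 (44.4%) lay within 2 kb of a transcript start, compared with 225 of the 1418 CpG-poor sites (15.9%). The CpG-rich sites held 12 fragments in WT As3+ and 11 in Nrf2 KO control at the median, and the CpG-poor sites 10 and 8. That left 1193 sites (56.9%) that were neither CpG-rich nor within 2 kb of a transcript start.

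Turned round, CpG-rich distal peaks were shared more often. Of 1192 CpG-rich distal WT As3+ peaks without a WT control peak, 678 (56.9%, interval 54.0 to 59.7%) had a Nrf2 KO control peak, against 1418 of 6036 CpG-poor peaks (23.5%, 22.4 to 24.6%). Height moved with this, so the shares were also taken within height classes. At a −log10 q under 5 they were 44.9% for CpG-rich and 19.5% for CpG-poor peaks, and at 5 or more they were 81.5% and 46.8%. Distal Nrf2 KO control peaks had a WT As3+ peak in 17.7% of CpG-rich and 6.59% of CpG-poor windows, and in 42.1% and 16.8% at a −log10 q of 5 or more. Local background also moved with sharing. It was over 2 times the lowest of its peak list at 45.3% of the shared sites, 20.8% of the WT As3+ group and 10.4% of the Nrf2 KO control group. Of distal WT As3+ peaks with such a background 47.2% were shared, against 22.0% of the others, and of distal Nrf2 KO control peaks 27.9% against 5.30%. At a −log10 q of 5 or more these shares were 63.0% and 50.4% in WT As3+ and 59.5% and 14.3% in Nrf2 KO control. The part of the background in the shares by CpG was not tested. Within 2 kb of a transcript start 51.5% of the distal WT As3+ peaks were shared, and farther away 25.3%.

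**Figure D4:**
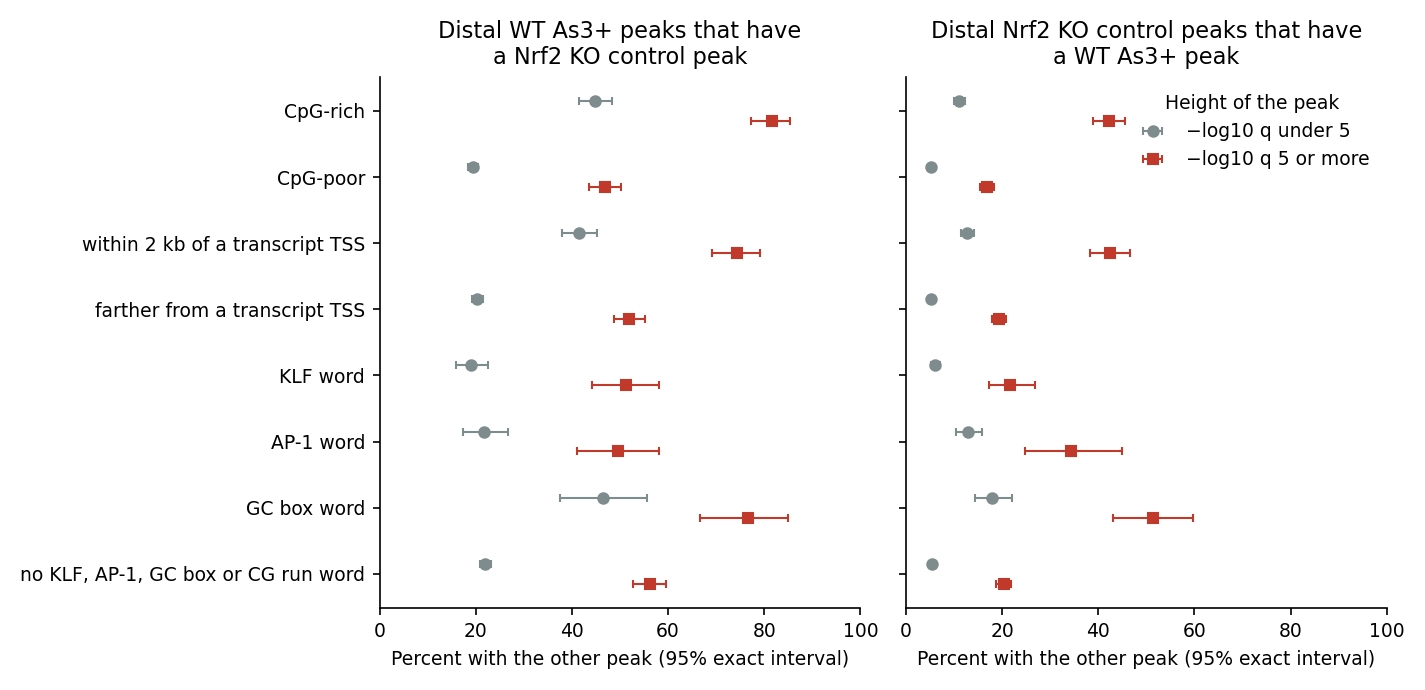
Percent of distal peaks that also had the other condition's peak, by features of the window that the choice of sites did not use, with exact 95% intervals for counting error: left, WT As3+ peaks with a Nrf2 KO control peak, right, Nrf2 KO control peaks with a WT As3+ peak. Grey circles are peaks with a −log10 q under 5 and red squares those at 5 or more, and CpG-rich peaks are above CpG-poor peaks in both classes and both panels.

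Over all windows, the KLF word was about as frequent under the shared sites as under the distal sites listed in 1 of the 2 conditions. It was present in 214 of 2096 windows (10.2%, interval 8.95 to 11.6%), in 10.9% (10.1 to 11.8%) of the WT As3+ group without a Nrf2 KO control peak, and in 9.87% (9.49 to 10.3%) of the Nrf2 KO control group without a WT As3+ peak. In windows of 60 to 70% GC the shares, in the same order, were 10.3% (8.61 to 12.2%), 8.82% (7.39 to 10.4%) and 7.56% (7.01 to 8.15%). At 70% GC or more they were 8.13% (5.76 to 11.1%), 8.40% (4.10 to 14.9%) and 11.7% (9.53 to 14.2%). Over all windows, the share was much higher in the 255 distal WT As3+ peaks that did overlap a WT control peak, at 32.9% (27.2 to 39.1%). Those 255 peaks were also taller, with a median of 21 fragments in WT As3+ against 11 at the shared sites. Their background was over 2 times the lowest at 82.75%, against 45.3% of the shared sites. The part of height and background in this contrast was not tested. The KLF letters read backwards were present in 4.96% of the shared, 3.68% of the WT As3+ and 3.85% of the Nrf2 KO control group. Distal WT As3+ peaks with the KLF word and a −log10 q under 5 were shared in 19.0% of cases, against 22.9% of all without a WT control peak. At 5 or more the shares were 51.2% and 57.4%, and in both classes the intervals overlapped. Within the shared sites the share with the KLF word followed height in WT As3+, from 7.25% (5.18 to 9.82%) in the 524 lowest sites by −log10 p to 15.5% (12.5 to 18.8%) in the 524 highest. By height in Nrf2 KO control it was 10.1% and 10.5%. In both rankings the windows were centred on the WT As3+ summit, and the median distance to the Nrf2 KO control summit was 110 bp. Centred on the Nrf2 KO control summit, 9.49% of all shared windows held the KLF word. The part of window placement in the contrast between the rankings was not tested.

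The AP-1 word was more frequent in both distal WT As3+ groups without a WT control peak than in the Nrf2 KO control group. It was present in 139 shared windows (6.63%, interval 5.60 to 7.78%) and in 6.24% (5.59 to 6.93%) of WT As3+ sites without a Nrf2 KO control peak, but in 2.59% (2.39 to 2.80%) of Nrf2 KO control sites without a WT As3+ peak. The same letters read backwards, which can overlap the AP-1 word itself, were present in 1.81%, 2.51% and 2.04%. In distal WT As3+ peaks with a WT control peak, taller and of higher background as given above, the AP-1 share was 22.4% (17.4 to 28.0%). In shared promoter sites it was 1.98%. Distal Nrf2 KO control peaks with an AP-1 word had a WT As3+ peak in 116 of 739 cases (15.7%), where all distal Nrf2 KO control peaks without a WT control peak had one in 8.28%. Within the shared sites the AP-1 share was 9.92% (7.50 to 12.8%) in the 524 highest sites by WT As3+ and 5.34% (3.58 to 7.63%) in the 524 lowest. By Nrf2 KO control it was 4.96% (3.27 to 7.19%) in the 524 highest and 8.78% (6.50 to 11.5%) in the 524 lowest, and in both rankings the intervals overlapped. Both rankings searched the AP-1 word around the WT As3+ summit, and the part of this placement was not tested. The background moved with this word: of the 950 shared sites whose WT As3+ background was over 2 times the lowest of the library 10.2% held it, and of the other 1146 sites 3.66% (2.65 to 4.92%). At such lower background, taken in each group's own peak list, it was present in 4.30% (3.70 to 4.97%) of the WT As3+ group and 2.42% (2.22 to 2.63%) of the Nrf2 KO control group. The gap to the latter was thus smaller than over all sites. The part of the background in the result was not tested. At the 1193 sites that were neither CpG-rich nor near a transcript start, the AP-1 word was present in 8.47% and the KLF word in 11.3%.

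Words rich in CpG or GC were more frequent under the shared sites than in both other distal groups, with intervals that did not overlap. The GC box, the binding word of SP and several KLF proteins, was present in 128 shared windows (6.11%, interval 5.12 to 7.22%), against 1.73% and 1.63% in the 2 groups listed in 1 condition and 13.7% in shared promoter sites. A run of CGCGCG was present in 7.73%, against 1.72% and 2.22%. Base composition moved with both words. In windows of 60 to 70% GC, which held 54.6% of the shared sites, the GC box was found in 3.85% (2.81 to 5.13%) of shared sites, 3.30% (2.43 to 4.38%) of the WT As3+ group and 2.68% (2.35 to 3.04%) of the Nrf2 KO control group. There CGCGCG was found in 4.81% (3.64 to 6.21%), 1.44% (0.879 to 2.21%) and 1.29% (1.06 to 1.55%). In windows of 70% GC or more, which held 21.1% of the shared sites, the GC box was found in 17.6% of shared sites (14.2 to 21.5%), in 13.4% (7.88 to 20.9%) of the WT As3+ group and in 8.20% (6.36 to 10.4%) of the Nrf2 KO control group, and CGCGCG in 19.4%, 19.3% and 16.0%. CTCF is the insulator protein that anchors chromatin loops, and its word was found in 26 shared windows (1.24%, 0.812 to 1.81%), 0.448% and 0.349%. At a background not over 2 times the lowest, the CTCF shares were 0.785% (0.360 to 1.49%), 0.344% (0.188 to 0.577%) and 0.274% (0.208 to 0.353%). There the intervals of the shared and WT As3+ groups overlapped. The Nrf2 word was found in 9.45% of the shared sites and in 9.20% and 9.03% of the other groups, with intervals that overlapped. In 1522 of the 2096 windows (72.6%) there was no KLF word, AP-1 word, GC box or CGCGCG, and only 15 held a KLF word and an AP-1 word together. A word is a match of letters and shows no binding.

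**Figure D5:**
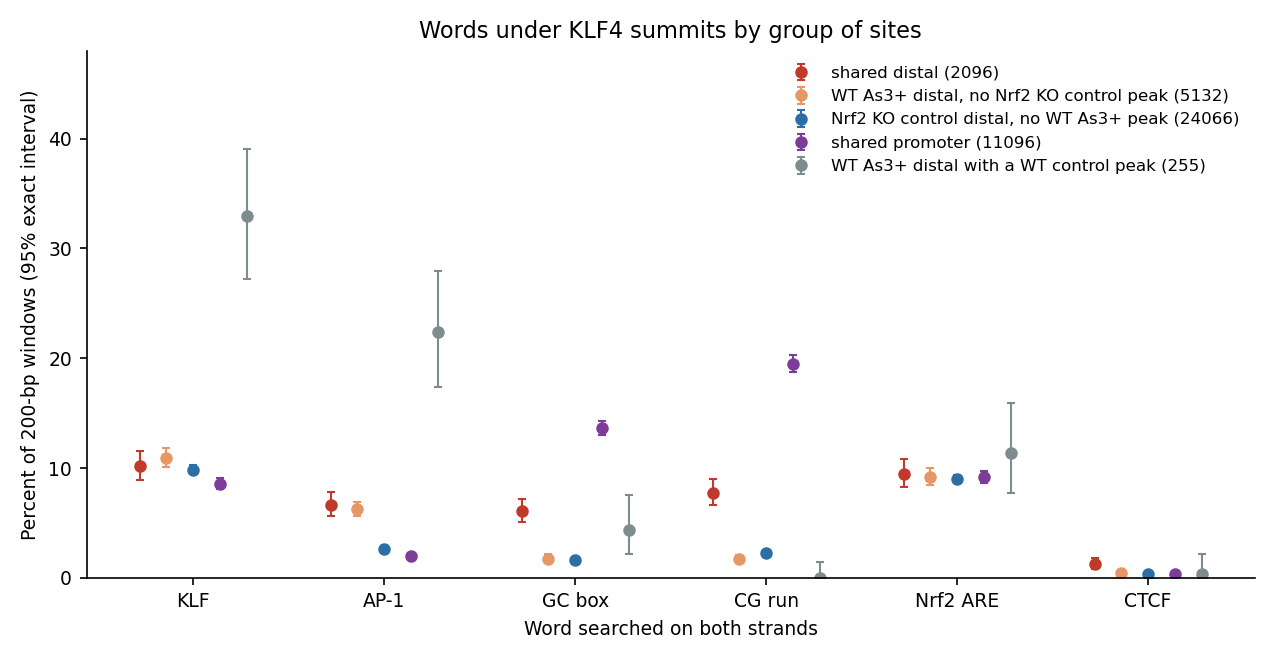
Percent of 200-bp windows that hold each word on either strand, by group of sites, with exact 95% intervals for counting error and the number of sites in brackets. The AP-1 word is in 6.63% of shared windows, 6.24% of the WT As3+ group without a Nrf2 KO control peak and 2.59% of the Nrf2 KO control group, while the GC box and CG run are highest in the promoter and shared distal groups.

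The summit was within an annotated gene at 1316 shared sites (62.8%), close to the 60.7% of the WT As3+ group and the 63.0% of the Nrf2 KO control group, and within a protein-coding gene at 1190 (56.8%), with 780 (37.2%) outside every gene. Their median distance to a gene start was 20696.5 bp, compared with 24830 bp and 24431.5 bp in the WT As3+ and Nrf2 KO control groups, and 13.3% lay more than 50 kb away, against 21.9% and 20.3%. The most remote was 310078 bp from any gene start, near LINC03041 on chromosome 9, and held 13 and 7 fragments. Density ran from 0.205 sites per Mb on the X chromosome to 1.99 per Mb on chromosome 22. Neighbours were common: 744 sites (35.5%) had another within 10 kb, and linking them gave 294 groups of at least 2, of which 35 held at least 4.

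Several genes held runs of shared sites. MEGF6, which encodes a protein with EGF-like repeats, had the most, with 12 sites in its 123558 bp. BAHCC1, a chromatin reader, followed with 10 in 70875 bp, all in 1 group, or 14.1 per 100 kb, the highest density of the 10 leading genes. BCOR, a corepressor of BCL6 and part of a Polycomb complex, had 9, and the transcriptional coregulator ZMIZ1 and the zinc-finger gene ZC3H3 also had 9 each. AHDC1, IQSEC1, the potassium channel gene KCNQ1 and the splicing factor gene RBFOX3 had 7 each, and the adhesion gene SDK2 had 6. Gene length and the local number of distal peaks differed among these genes: ZMIZ1 also held 47 Nrf2 KO control sites without a WT As3+ peak and RBFOX3 86, while BAHCC1 held 5. Grouped by distance alone, 8 linked sites stood in a stretch that overlaps WNT7B and 7 at GATA5.

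Of 19970 protein-coding genes, 849 (4.25%) held a shared site, and all 849 were over 10 kb long, which the distance limit requires. That was 5.715% of the 14855 protein-coding genes over 10 kb. Distal WT As3+ sites without a Nrf2 KO control peak lay in 1769 genes, and distal Nrf2 KO control sites without a WT As3+ peak in 4605. In the 14 gene lists used here 40 of 279 genes (14.3%) held 65 sites, of which 29 (44.6%) lay within 2 kb of a transcript start and 26 were CpG-rich. Long genes offer more room, and list lengths differed from a median of 8415 bp in the cytokine list to 120584.5 bp in the enhancer list. Genes over 10 kb, the only ones that could hold a site, were 7 of 19 in the cytokine list and all 20 in the enhancer list. The counts are therefore descriptions.

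Genes of the Nrf2 pathway were hit in 7 of 25 cases. The WT As3+ and Nrf2 KO control groups listed in 1 of the 2 conditions had sites in 6 and 10 of these 25 genes. The shared sites included GCLC, the catalytic subunit of glutathione synthesis, where 13 fragments in WT As3+ and 11 in Nrf2 KO control stood 58 bp from a transcript start, on the joined AP-1 and Nrf2 word printed above. BACH1, the repressor that competes with Nrf2 for its elements, held 19 and 14 fragments at a CpG-rich site 60 bp from a transcript start. SQSTM1, the autophagy receptor p62, held 19 and 16 fragments 125 bp from a transcript start. ABCC1, an exporter of glutathione conjugates, held 19 and 12 at a site 14388 bp from any transcript start with both a KLF and an AP-1 word. At TKT, an enzyme of the pentose phosphate pathway, the counts were 10 and 10, at 1061 bp from a transcript start. At OSGIN1 they were 11 and 12, at 501 bp from one.

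Among transcription factors, 2 of 15 AP-1 genes and 1 of 19 KLF and SP genes held sites. In these lists 7 and 15 genes were over 10 kb long and so able to hold one. ATF3, a stress-induced AP-1 partner, held 5 sites whose summits spanned 2299 bp, all within 2 kb of an internal ATF3 transcript start and all CpG-rich. Their counts were 9, 12, 13, 15 and 14 fragments in WT As3+ and 8, 12, 12, 11 and 14 in Nrf2 KO control. FOSL2 held 1 site with 19 and 10 fragments. KLF13 held 1 site 686 bp from an internal transcript start, with 13 and 11 fragments, and 1 farther away with 6 and 13. RUNX1 held the widest shared interval, 2550 bp, at an internal transcript start, with 25 and 14 fragments.

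In signalling lists the WNT pathway had sites in 5 of 21 genes, the Hippo pathway in 5 of 18 and the TGF-beta pathway in 5 of 22. In the same order, the WT As3+ group without a Nrf2 KO control peak had sites in 10, 6 and 7 genes. The Nrf2 KO control group without a WT As3+ peak had them in 13, 9 and 9. WNT10A, a WNT ligand, held 4 sites, and 2 of them were among the most uneven of the set, with 30 and 28 fragments in WT As3+ against 7 and 10 in Nrf2 KO control. The WNT7B ligand gene held 4 low sites of 8 to 9 fragments in WT As3+ and 6 to 11 in Nrf2 KO control. TCF7L2, a nuclear partner of beta-catenin, held 20 and 10 fragments over a window with a KLF and an AP-1 word. VGLL4, a TEAD cofactor that opposes YAP, held 3 sites near internal transcript starts, the tallest with 24 and 16 fragments. TEAD3 held 20 and 16, the Hippo kinase LATS2 18 and 8, and the kinase STK3 16 and 15 at 151 bp from a transcript start. TGFBR3, the TGF-beta co-receptor betaglycan, held 29 and 13 fragments 132 bp from a transcript start, and SMAD3 held 15 and 9, while the feedback inhibitor SMAD7 and the ligand gene TGFB1 held 2 sites each with 8 to 13 fragments in either library.

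Cytoskeletal and chromatin genes followed. Of 19 actin and focal adhesion genes 6 held sites, among them TNS1 (tensin) with 4, ACTN4 with 2 and SRC with 1. The TNS1 sites had 8 to 14 fragments in WT As3+ and 8 to 12 in Nrf2 KO control, the nearest at 55 bp from a transcript start. SRC had 19 and 17 fragments at 555 bp from one. In the actin list the WT As3+ and Nrf2 KO control groups listed in 1 of the 2 conditions had sites in 12 and 14 genes. Of 20 enhancer enzymes and cofactors 3 held sites. Among them the chromatin remodelling subunit gene ARID1B held 1 with 23 and 14 fragments, at 831 bp from a transcript start. ITGB5 (2 sites) and COL4A2 (1) were the 2 of 21 laminin, collagen and integrin genes. The taller ITGB5 site held 22 and 17 fragments at 149 bp from a transcript start. The junction list had CLDN4 in 1 of 24, the mesenchymal list TNC in 1 of 22, the ERBB list NRG1 in 1 of 14 and the airway factor list RUNX1 in 1 of 20. No gene of the 19 in the NF-kB and cytokine list held a site. Only 7 of these 19 genes were over 10 kb long, and a shorter gene could hold none, so nothing is read from this count.

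Few of these peaks were listed in Nrf2 KO cells treated with As3+. Only 6 of the 2096 sites (0.286%, interval 0.105 to 0.622%) overlapped 1 of the 130 Nrf2 KO As3+ peaks, against 0.321% of all distal WT As3+ peaks and 0.248% of all WT As3+ peaks, so the share was close to that background. The site 158100 bp from CYRIA held 15 fragments in Nrf2 KO As3+ beside 31 in WT As3+ and 33 in Nrf2 KO control, and a second site inside CYRIA held 16, 14 and 21. In the keratin gene KRT8 the counts were 28, 17 and 23, and in MEGF6 they were 15, 27 and 16. At LINC00578, 250701 bp upstream of the corepressor gene TBL1XR1, they were 27, 25 and 9. The sixth site, 12013 bp from HGH1 on chromosome 8, was named after its values were seen and held 27, 21 and 37 fragments. Near WT control peaks, 18 sites had an interval within 1 kb and 104 a summit within 10 kb, among them the tallest site at EDN2, whose nearest WT control summit was 2490 bp away.

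A small set of sites stood apart by sequence and background. In 27 of the 2096 windows (1.29%) there were 8 or more ATTCC words on either strand, as in human satellite repeats, against 0.0585% of the WT As3+ and 0.0997% of the Nrf2 KO control groups. Distal WT As3+ peaks with a WT control peak had a like share, 4 of 255 (1.57%), so such windows were not particular to the shared sites. The 27 shared windows lay on chromosome 4 between 49099086 and 49153512 (14 sites), chromosome 16 between 46382862 and 46395234 (8), chromosome 2 between 89828486 and 89836675 (4) and chromosome 20 (1). Their backgrounds were high, with WT As3+ medians of 11.9 fragments on chromosomes 4 and 16, and they included the site with the most fragments of all, 99 in WT As3+ and 73 in Nrf2 KO control, at a fold enrichment of only 2.65 and 2.93. By the CpG ratio 20 of the 27 counted as CpG-rich, and 658 CpG-rich sites remained without them.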

How the data were processed

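The authors sequenced KLF4 ChIP libraries as 75-nt reads on a NextSeq 500, aligned them with BWA to GRCh38 and deposited 1 peak list per condition; bcl2fastq 2.17 is named in the submitters' notes, and the peak caller is not given in the sources used here. The deposited columns used hold fold enrichment (a ratio), −log10 p and −log10 q per peak, beside a score and the summit offset. The number of fragments over each summit and its background were recovered from fold and −log10 p, taking fold as (fragments + 1)/(background + 1) and p as a Poisson tail, with a largest misfit of 0.000405 in −log10 p. Tags were sampled at random to the size of the smallest library for the density maps, and whether this was also done before peak calling is not given in the sources used here. Library read totals are not known, so peak heights are not scaled between libraries. Distances used GENCODE 44 and words the hg38 sequence, in 200-bp windows. Steps were tested on simulated data in Python 3.11.15 with pysam 0.24.0, and the intervals came from scipy 1.17.1. The sites and gene lists were chosen with earlier results of these data known. Named sites were the 10 tallest in WT As3+ and 5 in Nrf2 KO control by −log10 p, up to 5 with a Nrf2 KO As3+ peak, 2 on each side of the 10 kb limit, list members and the 10 genes with most sites. The other sites given were chosen after their values were seen. Alternatives changed distance, overlap, q, window and background.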

Additional observations from a re-analysis of the deposited data

Results flagged for a closer look

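Of the shared distal sites, 2090 were listed in WT cells with As3+ and not without it, and in Nrf2 KO cells without As3+ and not with it. Absence from the Nrf2 KO As3+ list was not particular to these sites. Only 0.248% of all WT As3+ peaks and 0.321% of the distal ones overlapped a peak of that list. With 1 library per condition the difference between the 2 kinds of cell was not tested. The WT part and the Nrf2 KO control part of that difference follow from how the sites were chosen, and the Nrf2 KO As3+ list held 130 peaks in all.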

How the results depend on the processing

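Of 118 values recomputed under an alternative, 63 stayed within the main interval (for a count, within 1.5 times) and 55 did not. The 0 that reversed carries no weight, because all were counts, medians or shares that describe the shared sites alone and none could reverse. No contrast between groups was among them. The number of sites, 2096, became 1096 at 20 kb from a gene start, 279 at 50 kb and 1189 at 10 kb from any transcript start. It became 735, 811 and 382 at a −log10 q of at least 5 in WT As3+, in Nrf2 KO control and in both, and 1146 without sites whose WT As3+ background was over 2 times the lowest, an alternative chosen after seeing the data. At a −log10 q of at least 5 in WT As3+ the medians were 16 and 11 fragments, the summit distance 104 bp, the Nrf2 KO As3+ overlap 0.816%, the share inside a gene 66.4%, the KLF word 14.4%, the AP-1 word 9.52%, the GC box 9.39%, the CG run 10.6%, GC 66.5% and the protein-coding genes with a site 1.84%. Asked of both libraries, the same limit gave 17 and 13 fragments, 1.31% overlap, 67.3% inside a gene, KLF 14.7%, GC box 10.5%, CG run 11.8%, GC 68.5% and genes 1.03%. With 50% of the shorter interval shared the summit distance was 89 bp and the genes 3.71%, and with summits within 200 bp they were 74 bp and 3.40%. Genes were 2.31% at 20 kb and 6.93% by nearest protein-coding start. In windows of 100 bp the KLF, AP-1, GC box and CG run shares were 5.92%, 2.96%, 3.20% and 4.77% with 65% GC, and in windows of 400 bp 16.0%, 10.9%, 11.1% and 12.9% with 62.8% GC. At the Nrf2 KO control summit the AP-1 share was 5.44%. Without the sites of high background the medians were 9 and 8 fragments, 60.2% were inside a gene, KLF was 8.90%, AP-1 3.66% and genes 2.36%. Without sites within 2 kb of a transcript start, also chosen after seeing the data, 50.3% were inside a gene, the GC box was 4.33%, the CG run 5.48%, GC 63.5% and genes 2.44%. Leaving out the satellite-like windows, likewise added, moved none of the values past its interval. The planned limit on soft-masked bases could not be run because the reference sequence used here carries no repeat marks, and the share of repeats was not computed. No paired analysis was possible because each condition has 1 library. The study's methods give a random sampling of tags to the smallest library, without saying whether peaks were called on those tags, and read totals are not known. The lowest background was 1.90 fragments in WT control, 0.757 in WT As3+, 0.491 in Nrf2 KO control and 1.64 in Nrf2 KO As3+, so the limit that depth set on low peaks may differ between lists.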
